A study of Mus musculus with 6 samples.

Results

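The pathway scores of cytokine and inflammatory signalling in mouse haematopoietic stem cells (HSCs) were taken from the authors' deposited pathway tables, one for each of 11 clusters of cells. A pathway belonged here when its name held interleukin, interferon, cytokine, JAK-STAT, NF-kB, TNF or Toll-like. This gave 84 of the 2922 scored pathways, or 2.88%. Reactome supplied 57 of them, WikiPathways 16, BioCarta 5 and KEGG 4, and 2 other collections 1 each. Each was counted in 1 family, and a name that held several of the terms went to the first that applied in the order interferon, interleukin, Toll-like receptor, TNF, NF-kB, JAK-STAT and cytokine. This gave 10 interferon, 32 interleukin, 4 Toll-like receptor, 13 TNF, 14 NF-kB and 1 JAK-STAT pathways and 10 on cytokines in general. One member, mitotic telophase cytokinesis, matched only because the word cytokinesis, the splitting of a dividing cell, begins like cytokine, and it says nothing of cytokines.

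The cells were HSCs sorted from bone marrow of mice of the Gfp-Lc3 genotype, a fluorescent tag on the autophagy protein LC3, which every animal carried, controls included. Young and old mice were each studied in 3 states: ad lib feeding, a 24 hour fast, and a 24 hour fast with 24 hours of refeeding after it. There was 1 mouse and 1 library for each of these 6 combinations, with no replicate. The tables pool all libraries and do not say which cell came from which mouse, so age and feeding could not be compared here. Every value below is a difference between one cluster and all other cells, and the clusters were themselves built on gene expression.

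Cytokines are secreted proteins that act through surface receptors. Interleukin and interferon receptors signal through Janus kinases (JAKs), which phosphorylate STAT transcription factors, and STATs switch on target genes that include the SOCS family and Cish, inhibitors that damp the same receptors. TNF-family, interleukin-1 and Toll-like receptors act through adaptor proteins, kinases and ubiquitin ligases to release NF-kB, a transcription factor held in the cytoplasm by inhibitor proteins that the proteasome destroys. In HSCs, interferons and other inflammatory signals are known to push quiescent cells into division, while signalling through the thrombopoietin receptor and JAK2 helps to maintain them.

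The clusters held 4904, 3955, 3910, 3802 and 3747 cells (clusters 0 to 4), 1188 cells (cluster 5) and 310, 267, 173, 112 and 10 cells (clusters 6 to 10), as inferred from the deposited p-values. All 84 pathways had a fold change in every cluster. The tables give a log2 fold change of the score and a signed test statistic, but no score level and no error between animals. The statistic, with the cell numbers, gave the difference in units of the standard deviation between cells (cell SD). This takes the spread to be equal in the cluster and in the other cells. That equality was not tested, so cell SD values of different clusters may not share the same unit. A pathway was called higher or lower when its log2 fold change reached 0.1 in size with the deposited adjusted p under 0.05, the latter only as a filter on noise because it treats cells as replicates. Stem cell markers were present in every cluster: 8 of 8 were measured, with a summed level of 14.8 per 10000 counts over all cells and 11.1 to 18.5 in single clusters. T cell markers summed to 0.0180 and B cell markers to 0.373, of which Cd79b made up 0.368. Neutrophil markers summed to 0.231. Macrophage or monocyte markers summed to 2.68, nearly all of it Lyz2 at 2.66.

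The share of cytokine and inflammatory pathways called higher exceeded that of all pathways most in cluster 2, while clusters 6 and 7 were low in most pathways, these included. In cluster 2, 14 of 84 were called higher (16.7%) where 8.86% of all pathways were, and 0 were called lower where 4.76% of all pathways were. In cluster 9, 21 were called higher (25.0%) beside 20.6% of all pathways, and 0 lower beside 1.51%. In cluster 8, 20 were called higher (23.8%), a smaller share than the 37.9% of all pathways, and 4 lower beside 5.07%. In cluster 6, 69 were called lower (82.1%) beside 76.9% of all pathways and 0 higher beside 0.0684%. In cluster 7, 43 were called lower (51.2%) beside 45.4% and 1 higher beside 5.72%. In clusters 6, 7 and 9 the members' shares were thus near those of all pathways. The counts rest on the size limit: in cluster 2 a limit of 0.05 gave 39 members called higher and a limit of 0.2 gave 1. When the median of all pathways was subtracted, a step added after the data were seen, cluster 6 had 10 members called higher and 12 lower, and cluster 7 had 22 lower. The share of all pathways called is not given at these other limits or after this step, so those counts have no background here.

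The other clusters had few calls. Cluster 0 had 2 members called higher beside 10.8% of all pathways and 8 lower beside 6.71%. A size limit in units of cell SD gave 11 members higher and 8 lower, with no share of all pathways given at that limit. For cluster 1 the counts were 1 higher beside 0.821% and 2 lower beside 7.63%. Cluster 3 had 0 called higher beside 2.6% and 5 lower beside 2.81%. For cluster 4 they were 1 higher beside 4.89% and 1 lower beside 1.2%. In cluster 5, 0 were called either higher or lower, where 1.44% and 0.821% of all pathways were. Cluster 10, with 10 cells, had 52 members called higher beside 63.4% of all pathways and 0 lower beside 0.924%, and is described by these counts alone. The plot of shares by cluster sets each count beside its background.

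**Figure D1:**
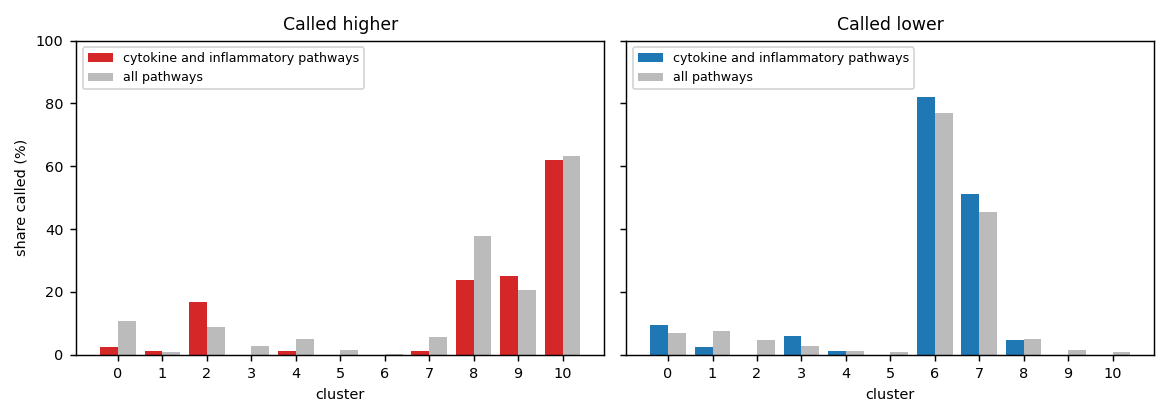
Share of pathways called higher (left) and lower (right) in each cluster, in percent, for the 84 cytokine and inflammatory pathways (coloured bars) and all 2922 pathways (grey bars). Cluster 2 has 16.7% against 8.86% called higher, while in clusters 6 and 7 the coloured and grey bars for lower scores are of similar height.

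The median log2 fold change of the 84 members in the authors' deposited tables was 0.05 in cluster 2, where the median of all pathways was 0.01, and 65 of 84 members lay above 0. In the authors' deposited table of cluster 0 it was -0.01, against 0.02 for all pathways, with 34 members above 0. Cluster 4 had 71 of 84 above 0 at a median of 0.03, against 0.01 for all pathways, and cluster 3 had 15 above 0 at a median of -0.02, against 0.00. In clusters 6 and 7 the members' medians were -0.22 and -0.13 in the authors' deposited tables, next to -0.21 and -0.10 for all pathways. In clusters 8 and 9 they were 0.06 in both, next to 0.09 and 0.04. The median over all genes was also shifted in cluster 6 (-0.32) and cluster 7 (-0.17) in the authors' deposited tables. The range of a member's log2 fold change over clusters 0 to 9 had a median of 0.39, beside 0.43 for all pathways.

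**Figure D2:**
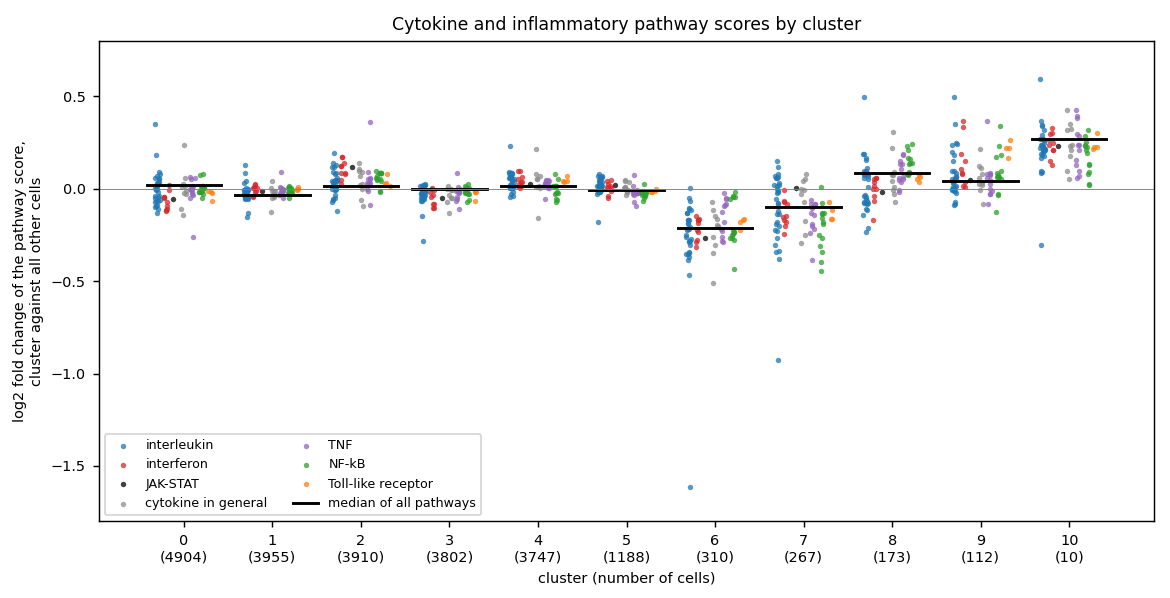
Log2 fold change of each of the 84 pathway scores (points, coloured by family) in each cluster against all other cells; the number of cells stands under each cluster and black bars mark the median of all 2922 pathways. The point at -1.61 in cluster 6 is the interleukin-36 pathway; most points of clusters 6 and 7 lie below 0 together with the black bar.

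Of the KEGG members, JAK-STAT signalling was called higher in cluster 2, where the sets of cytokine receptors and of adipocytokines were not called. KEGG JAK-STAT signalling, the core route from cytokine receptors to STATs, stood in clusters 0 to 9 at -0.06, -0.01, 0.12, -0.05, 0.02, 0.02, -0.27, 0.00, -0.02 and 0.05 in the authors' deposited tables. The value of cluster 2 was the only one called higher and amounted to 0.44 cell SD. A Reactome set on JAK-STAT signalling after interleukin-12, counted with the interleukins, was at -0.06 in cluster 2 of the authors' deposited table, not called. The KEGG list of cytokines and their receptors stood at -0.02, 0.00, 0.07, -0.05, 0.01, 0.04, -0.16, -0.01, -0.01 and 0.03 in the same clusters of the authors' deposited tables, under the size limit outside cluster 6. The KEGG adipocytokine pathway, which covers hormones of fat tissue such as leptin, ran at 0.01, -0.04, 0.02, 0.00, 0.02, 0.01, -0.26, 0.00, 0.09 and 0.12 in the authors' deposited tables and was called higher in cluster 9.

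Interleukin-7 signalling, which acts through the common gamma chain, JAK1, JAK3 and STAT5 and drives lymphoid growth, had the clearest contrast of the interleukin pathways among the large clusters. Over clusters 0 to 9 it stood at -0.13, -0.01, 0.19, -0.04, 0.03, 0.00, -0.28, 0.12, -0.04 and 0.06 in the authors' deposited tables. It was called higher in cluster 2 (14.1% higher, 0.41 cell SD) and in cluster 7, where it was the single member called higher, and lower in clusters 0 and 6. Further interleukin pathways called higher in cluster 2 were receptor SHC signalling (0.14), interleukin-35 (0.13), interleukin-21 (0.12) and interleukin-27 (0.12) in the authors' deposited table. The interleukin-6-type receptor and ligand pathway was at 0.11 in the same table of the authors' deposited set. Receptors of interleukin-6, interleukin-27 and interleukin-35 use the shared chain gp130, and that of interleukin-21 the common gamma chain, so their sets can hold the same genes. In cluster 0 the interleukin-21 and interleukin-6-type pathways were called lower, both at -0.11 in the authors' deposited table.

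Other members had their calls in different clusters. The WikiPathways set of cytokines and inflammatory response, made mostly of secreted factors, was called higher in clusters 0 and 8 and lower in cluster 4, with 0.24, -0.02, -0.06, -0.07, -0.16, -0.01, -0.07, -0.07, 0.22 and 0.21 over clusters 0 to 9 in the authors' deposited tables. RUNX1-regulated genes of interleukin signalling, a set around a transcription factor of blood stem cells, stood at 0.18, -0.13, -0.06, -0.05, 0.05, -0.02, -0.47, 0.02, 0.19 and 0.10 in the authors' deposited tables. They were called higher in clusters 0 and 8 and lower in clusters 1 and 6. Interleukin-18 signalling, the route of an interleukin-1 relative that calls forth interferon gamma, was called higher in cluster 1 (0.13) and lower in clusters 3 (-0.15) and 7 (-0.34) in the authors' deposited tables. The first 2 differences were 0.08 and -0.09 cell SD, small beside the spread between cells.

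The widest range of all members belonged to the Reactome interleukin-36 pathway, and it was the profile of 1 gene. Its log2 fold change equalled that of Il1rl2, the interleukin-36 receptor gene (chromosome 1, 40324610 to 40367562, mm10), in clusters 0 to 9 within 1.9e-08 in the authors' deposited tables. The values were 0.35, -0.15, -0.12, -0.28, 0.23, -0.18, -1.61, -0.93, 0.50 and 0.50 in the authors' deposited tables. Only the -1.61 of cluster 6 was called, and it amounted to -0.16 cell SD. Il1rl2 was rarely counted, with a mean level of 0.0152 per 10000 counts in the authors' deposited table. Of all 2922 pathways, 26 equalled a single gene within 0.0001, and the interleukin-36 pathway was the only one of the 84 members to do so. Il1rl2 was named after its values were seen.

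Interferon pathways had calls in clusters 0, 2, 3 and 6 to 9. In cluster 2, 5 of the 10 were called higher beside 8.86% of all pathways, and all 10 lay above 0, with a median of 0.10 in the authors' deposited table. The overview of interferon-mediated signalling and type III interferon signalling led at 0.17 each, followed by Reactome interferon alpha/beta (0.14), WikiPathways type II interferon (0.12) and Reactome interferon gamma (0.12) in the authors' deposited table. In cluster 0, 3 of the 10 were called lower beside 6.71% of all pathways: type III (-0.12), interferon alpha/beta (-0.11) and the overview set (-0.11) in the authors' deposited table. Interferon alpha/beta signalling, through which type I interferons induce antiviral genes, stood over clusters 0 to 9 at -0.11, 0.03, 0.14, -0.02, 0.01, 0.01, -0.17, -0.25, -0.07 and 0.15 in the authors' deposited tables. Its highest values were in clusters 9 and 2 and its lowest in cluster 7.

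Cluster 9 also had 5 interferon pathways called higher beside 20.6% of all pathways, led by sets on the sensing of virus that induces interferon. Type I interferon induction during SARS-CoV-2 infection stood at -0.04, 0.01, 0.08, -0.10, 0.09, -0.05, -0.29, -0.06, 0.00 and 0.37 over clusters 0 to 9 in the authors' deposited tables, and in cluster 9 the difference was 0.81 cell SD. The coronavirus interferon induction set was at 0.33 in cluster 9 of the authors' deposited table. Type II interferon (0.19), interferon alpha/beta (0.15) and Reactome interferon signalling (0.11) were the others in the authors' deposited table. The overview and type III sets, which led cluster 2, were both at 0.01 in cluster 9 of the authors' deposited table. In cluster 3 both virus-sensing sets were called lower, at -0.10 each in the authors' deposited table. In cluster 6 all 10 interferon pathways were called lower beside 76.9% of all pathways, and in cluster 7, 6 were beside 45.4%. Their medians there, -0.20 and -0.15 in the authors' deposited tables, lay near the -0.21 and -0.10 of all pathways. In cluster 8, type III interferon was called lower (-0.17) in the authors' deposited table, while the DEx/H-box helicase set, on sensors of foreign nucleic acid upstream of interferon, was the highest member called there (0.30, or 0.40 cell SD).

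Of the 13 pathways counted as TNF, 7 were called lower in cluster 6 beside 76.9% of all pathways and 7 in cluster 7 beside 45.4%, and 5 were called higher in cluster 8 beside 37.9%. The Reactome set of TNF-superfamily members that signal to non-canonical NF-kB, a list of receptors such as the lymphotoxin beta receptor and BAFF receptor with their ligands, had the largest difference of any member in clusters 0 and 2 that was called. It stood at -0.26, 0.00, 0.36, -0.06, 0.03, -0.10, -0.13, -0.13, -0.02 and -0.03 over clusters 0 to 9 in the authors' deposited tables. Its score was 28.2% higher in cluster 2 (0.45 cell SD) and 16.4% lower in cluster 0 (-0.32 cell SD). At 0.36 it was above 98.8% of all pathways in cluster 2. The Reactome set of TNF ligands that bind their receptors ran otherwise, at -0.09 in cluster 2 (not called) and -0.11 in cluster 3 (called lower) in the authors' deposited tables. The BioCarta TNFR2 set, on the second TNF receptor, was called higher in clusters 8 (0.14) and 9 (0.36, or 0.53 cell SD) and lower in cluster 6 (-0.28) in the authors' deposited tables.

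The 14 pathways counted as NF-kB leave out those that also name TNF, such as the TNF-superfamily set above. They had no call in clusters 0 to 5, where 0.821% to 10.8% of all pathways were called higher and 0.821% to 7.63% lower. In cluster 2, 12 of the 14 lay above 0 with a median of 0.06, beside 0.01 for all pathways, in the authors' deposited table. The numbers called lower were 9 of 14 in cluster 6 beside 76.9% of all pathways and 11 of 14 in cluster 7 beside 45.4%. In cluster 9, 4 were called higher beside 20.6%. In cluster 8, 8 of 14 were called higher beside 37.9% and all 14 lay above 0 (median 0.13 in the authors' deposited table, beside 0.09 for all pathways). The non-canonical set downstream of Dectin-1, a receptor for fungal glucans, had the widest range of them, at 0.08, 0.00, -0.02, 0.02, -0.07, -0.02, -0.02, -0.45, 0.23 and -0.03 over clusters 0 to 9 in the authors' deposited tables. Its difference was -0.82 cell SD in cluster 7 and 0.93 cell SD in cluster 8. The NF-kB set downstream of the IgE receptor Fc epsilon RI stood at -0.40 and 0.21 in those 2 clusters, and the TNFR2 non-canonical set, counted as TNF, at -0.38 and 0.19, in the authors' deposited tables. The BioCarta set on erythropoietin and NF-kB was called higher in cluster 8 (0.24) and cluster 9 (0.23) in the authors' deposited tables.

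Toll-like receptor pathways, which sense microbial products, were all 4 called higher in cluster 9, beside 20.6% of all pathways. All 4 were called lower in cluster 6 beside 76.9%, and 3 in cluster 7 beside 45.4%. KEGG Toll-like receptor signalling stood at -0.07, 0.01, 0.08, -0.06, 0.07, 0.00, -0.23, -0.07, 0.04 and 0.26 over clusters 0 to 9 in the authors' deposited tables, and its value in cluster 9 was 0.88 cell SD. The TLR9 and TLR1/TLR2 cascades were at 0.22 and the Reactome set of all cascades at 0.17 in cluster 9 of the authors' deposited table. In the same cluster interleukin-4 and interleukin-13 signalling was at 0.35, RANKL signalling (the receptor activator of NF-kB) at 0.34, interleukin-10 at 0.24 and interleukin-17 at 0.24 in the authors' deposited table. Interleukin-4 and interleukin-13 signalling had the largest standardised difference of any member named in cluster 9, 1.22 cell SD. It stood between -0.22 and 0.05 in clusters 0 to 8 of the authors' deposited tables. The heat map of named members shows these profiles side by side.

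**Figure D3:**
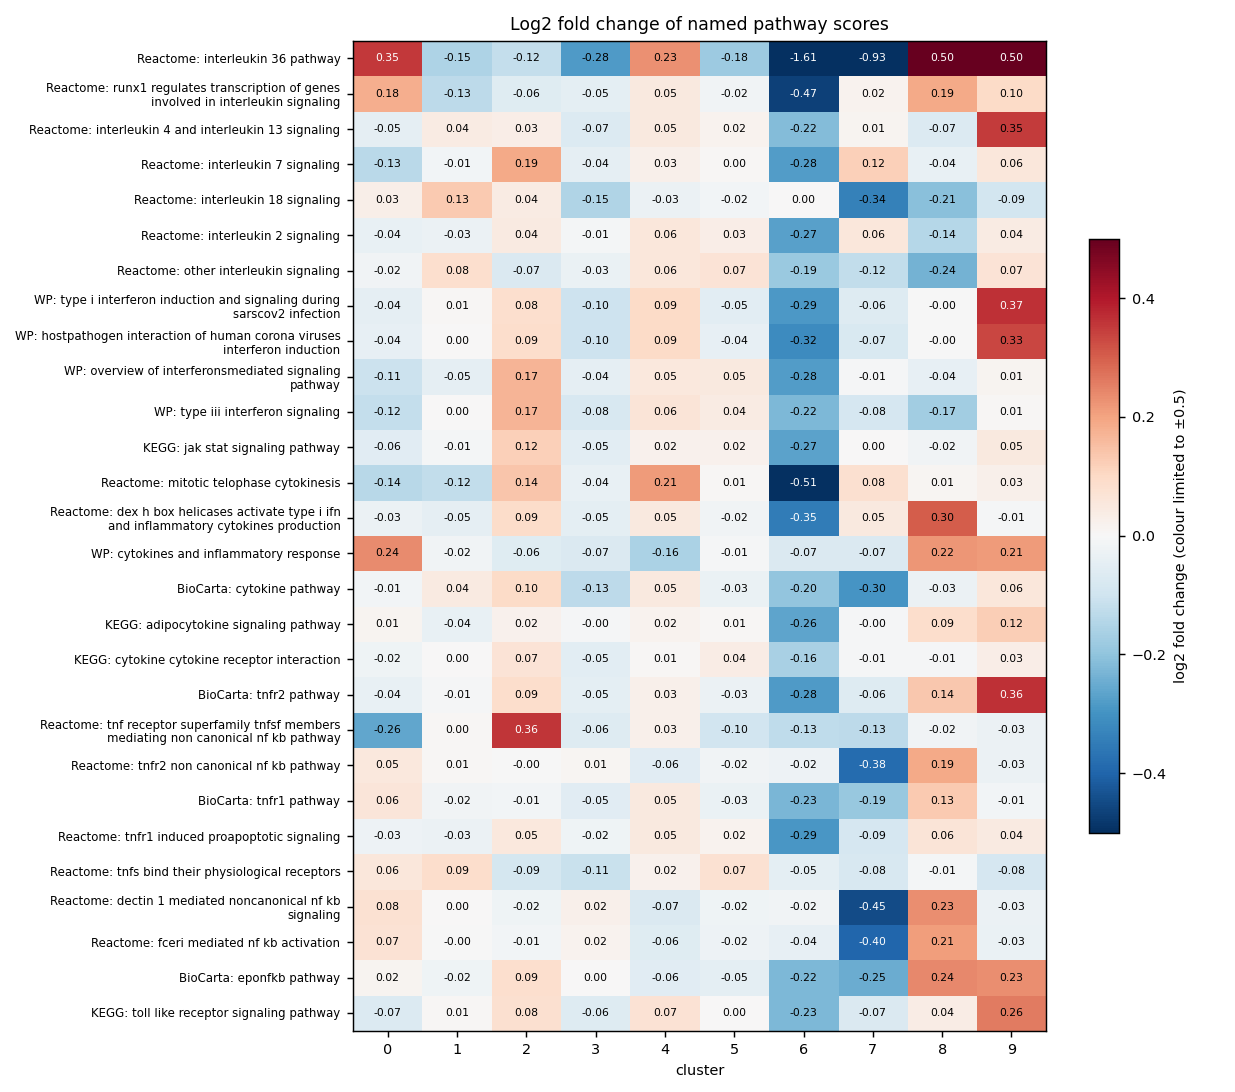
Log2 fold change (number and colour) of the named pathway scores (rows, grouped by family) in clusters 0 to 9 (columns) against all other cells. The non-canonical TNF-superfamily set is at 0.36 in cluster 2 and -0.26 in cluster 0, Dectin-1 signalling is at -0.45 in cluster 7 and 0.23 in cluster 8, and the Toll-like receptor row peaks at 0.26 in cluster 9.

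Several members are not separate measurements. Members were joined when their largest difference over clusters 0 to 9 was under 0.03, a limit set after the data were seen. The joins were chained, so that each member lay within the limit of at least 1 other in its group, and members of a group could differ by more. This put 16 members into 6 groups of similar profiles, and counting each group once left 74. One group held the Fc epsilon RI, TNFR2 non-canonical and interleukin-1 signalling sets. Another held interleukin-17 with the TLR9 and TLR1/TLR2 cascades. A further one held cytokine signalling in the immune system, signalling by interleukins and the induction of interferon by the RNA sensors DDX58 and IFIH1. The 2 neurotrophin receptor sets on NF-kB survival formed a pair, as did the BioCarta NF-kB set and a set on its block by Yersinia. The last group held TNF signalling, the regulation of TNFR1 signalling and its branch to NF-kB. The scoring of cells and the genes of each set were not given in the sources used here.

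Among clusters 0 to 9, proteasome genes had calls in clusters 6 to 8 and Fos and Jun genes in clusters 3, 4, 6, 8 and 9. Their part in the scores was not tested. These groups were chosen after the values were seen and are given as a description only. The 45 proteasome subunit genes had a median of -0.51 in cluster 7, with 22 called lower beside 24.3% of all genes, and of 0.31 in cluster 8, with 4 called higher beside 2.37% and 43 above 0, in the authors' deposited gene tables. In clusters 0 to 6 and 9 that median lay between -0.14 (cluster 9) and 0.10 (cluster 0) in the authors' deposited tables. In cluster 9 all 7 genes of the Fos and Jun family, whose products form the transcription factor AP-1, lay above 0 with a median of 1.89 and 6 called higher beside 1.2% of all genes, in the authors' deposited table. Fos was at 3.27 and Junb at 2.26 there in the authors' deposited table. The same 7 genes were below 0 in cluster 8 (median -0.59), with 4 called lower beside 19.5% of all genes. The Toll-like receptor scores lay there between 0.04 and 0.07. In cluster 4, 3 of the 7 genes were called higher beside 0.387% and 1 lower beside 1.35% (median 0.30), and those scores lay between 0.04 and 0.07. In cluster 6 all 7 were below 0 (median -0.36), with 1 called lower beside 26.2%, and the scores lay between -0.23 and -0.16. In cluster 3, 1 of the 7 was called lower beside 1.9% (median -0.27), and the scores lay between -0.06 and -0.01. In cluster 0 all 7 were below 0 (median -0.33), with 0 called lower beside 6.62%, and the scores lay between -0.07 and -0.01. The 7 genes' median was 0.12 in cluster 7, all in the authors' deposited tables. Of all genes called lower in clusters 6, 7 and 8, in that order, 2383 of 4466, 2533 of 4148 and 2743 of 3333 had no count there. The proteasome, Fos and Jun genes all had counts in these clusters, so those lower shares are not a like background for them.

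**Figure D4:**
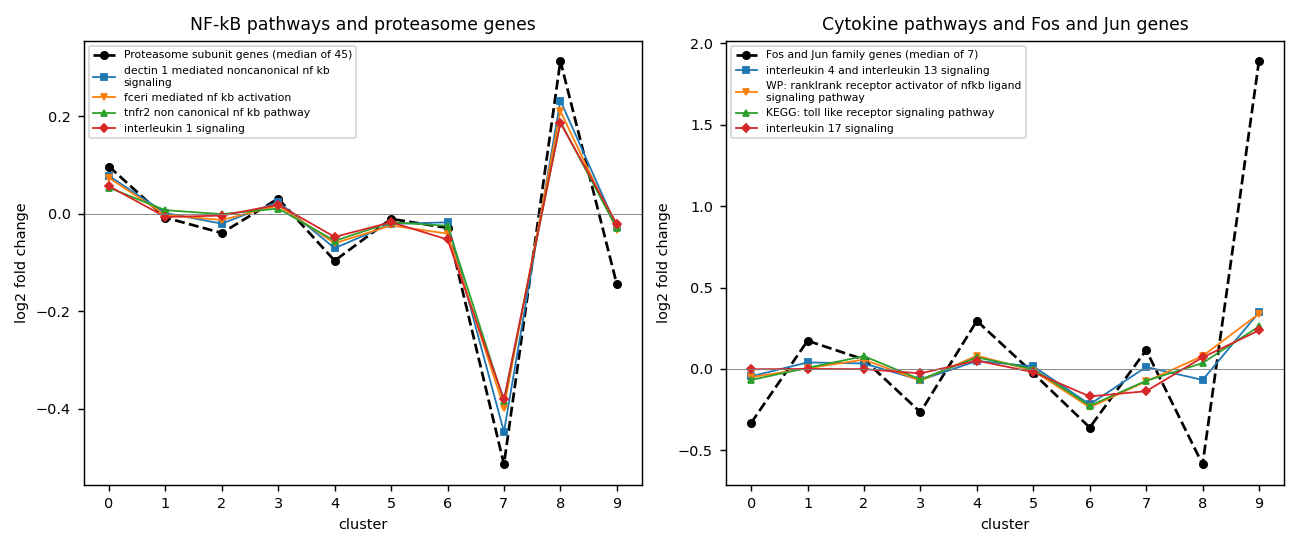
Log2 fold change in clusters 0 to 9 of 4 pathway scores (coloured lines) with the median of the 45 proteasome subunit genes (left, dashed), and of 4 others with the median of the 7 Fos and Jun family genes (right, dashed); pathways and groups were chosen after their values were seen. The dashed line at left is lowest in cluster 7 (-0.51) and highest in cluster 8 (0.31), and the one at right is highest in cluster 9 (1.89).

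The genes of cytokine signalling were read from 9 lists ordered by role, of which 231 of 254 genes were measured. A gene was called from a log2 fold change of 0.5 upwards in size, with the same filter on the deposited adjusted p. In cluster 2, 16 were called higher beside 3.02% of all genes and 5 lower beside 3.49%. Cluster 0 had 7 called higher beside 2.4% and 22 lower beside 6.62%. Cluster 1 had 3 higher beside 0.123% and 2 lower beside 2.4%, cluster 3 had 0 higher beside 0.703% and 5 lower beside 1.9%, and cluster 4 had 0 higher beside 0.387% and 6 lower beside 1.35%. The counts of cluster 5 were 0 higher beside 0.135% and 7 lower beside 4.87%, and those of cluster 6 were 0 higher beside 0.0469% and 48 lower beside 26.2%. Cluster 7 had 2 higher beside 1.84% and 43 lower beside 24.3%, cluster 8 had 1 higher beside 2.37% and 32 lower beside 19.5%, and cluster 9 had 4 higher beside 1.2% and 23 lower beside 19.9%. As shares of the 231 genes, the calls of cluster 2 came to 6.93% higher and 2.16% lower, and those of cluster 0 to 3.03% higher and 9.52% lower. Of the lower list genes, 5, 12, 18, 18 and 17 in clusters 5 to 9, in that order, had no count there. The background held a larger part of such genes. Of all genes called lower, 681 of 832, 2383 of 4466, 2533 of 4148, 2743 of 3333 and 3104 of 3390 had no count in those clusters. The lower shares of clusters 5 to 9 therefore do not compare detected genes with detected genes.

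Among ligands, Ltb, which encodes lymphotoxin beta, stood at 1.01 (cluster 2) and -0.87 (cluster 0) in the authors' deposited tables. It was well detected, at 2.34 per 10000 counts. Il1b and Il9r had larger folds but were scarcely detected: Il1b was at 2.53 in cluster 0 with a log2 mean level of -9.42, and Il9r at 2.93 in cluster 2 with a log2 mean level of -8.45, in the authors' deposited tables. Of the receptors, Il18r1 and Il18rap, the interleukin-18 receptor chains, were called higher in cluster 0 (0.99 and 0.56) and lower in cluster 2 (-1.47 and -0.80) in the authors' deposited tables. The interleukin-18 pathway score was at 0.03 and 0.04 in those clusters of the authors' deposited tables, neither of them called. Flt3, a receptor of early lymphoid and myeloid progenitors, was at 0.66 and -0.75 in the same 2 clusters in the authors' deposited tables.

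Downstream of the receptors, none of the 11 JAK and STAT genes was called in clusters 0 to 5. Of all genes, 0.123% to 3.02% were called higher and 1.35% to 6.62% lower in these clusters, so 0 of 11 is near those shares. The feedback inhibitors Socs2 (1.53) and Cish (1.03), both targets of STAT5, were called higher in cluster 2 and had -1.16 and -0.94 in cluster 0 of the authors' deposited tables. Of the 38 interferon-induced genes 36 lay above 0 in cluster 2 with a median of 0.27, and 7 were called higher beside 3.02% of all genes, whose median was 0.02, in the authors' deposited table. Ifit3b (2.02), Ifit3 (1.48) and Oasl1 (0.77), antiviral effectors, led them in the authors' deposited table. These 3 were rarely counted, at 0.00954, 0.0355 and 0.0328 per 10000 counts. The better counted Ifitm1 and Ifitm3, at 19.9 and 14.3 per 10000 counts, stood at 0.60 and 0.23 in cluster 2 of the authors' deposited table. Ifit3 and Ifit3b are close copies, so reads may be shared between them. In cluster 9, 16 of the 38 interferon-induced genes lay above 0, with a median of -0.05 in the authors' deposited table. The median of all genes there was -0.07. Of the 38, 0 were called higher there beside 1.2% of all genes, and 2 lower, with no count there, beside 19.9%. In cluster 7, 12 of the 38 interferon-induced genes were detected and called lower, among them Ifit3 (-1.98), Gbp2 (-1.04) and Ifitm3 (-0.81) in the authors' deposited table. A further 1 was called lower with no count there. Of all genes 24.3% were called lower in cluster 7, but 2533 of these 4148 had no count there. That share is therefore not a like background for the detected genes. The NF-kB subunit gene Relb, of the non-canonical arm, was at 0.70 in cluster 2 of the authors' deposited table.

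In cluster 9 the 4 list genes called higher were Nfkbid (2.74) and Nfkbiz (2.72), nuclear inhibitor-like partners of NF-kB, Socs3 (1.58), and the survival gene Mcl1 (1.47), in the authors' deposited table. Of the 23 measured Toll-like receptor and adaptor genes 0 were called higher there beside 1.2% of all genes. Irak2, a kinase of the same route, was called lower and stood at -2.21 in the authors' deposited table. It was rarely counted, with a mean level of 0.0494 per 10000 counts over all cells. Of all genes 19.9% were called lower in cluster 9, but 3104 of these 3390 had no count there, unlike Irak2. In clusters 7 and 8 the genes called higher were the stem cell factor receptor Kit (0.57) and the deubiquitinase gene Cyld (0.52) in cluster 7 and Trim25 (0.60), a ubiquitin ligase of RNA sensing, in cluster 8, in the authors' deposited tables. In cluster 1 they were Cd14 (0.55) and Ly96 (0.50), both co-receptors of TLR4, and Cish (0.51), in the authors' deposited table.

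**Figure D5:**
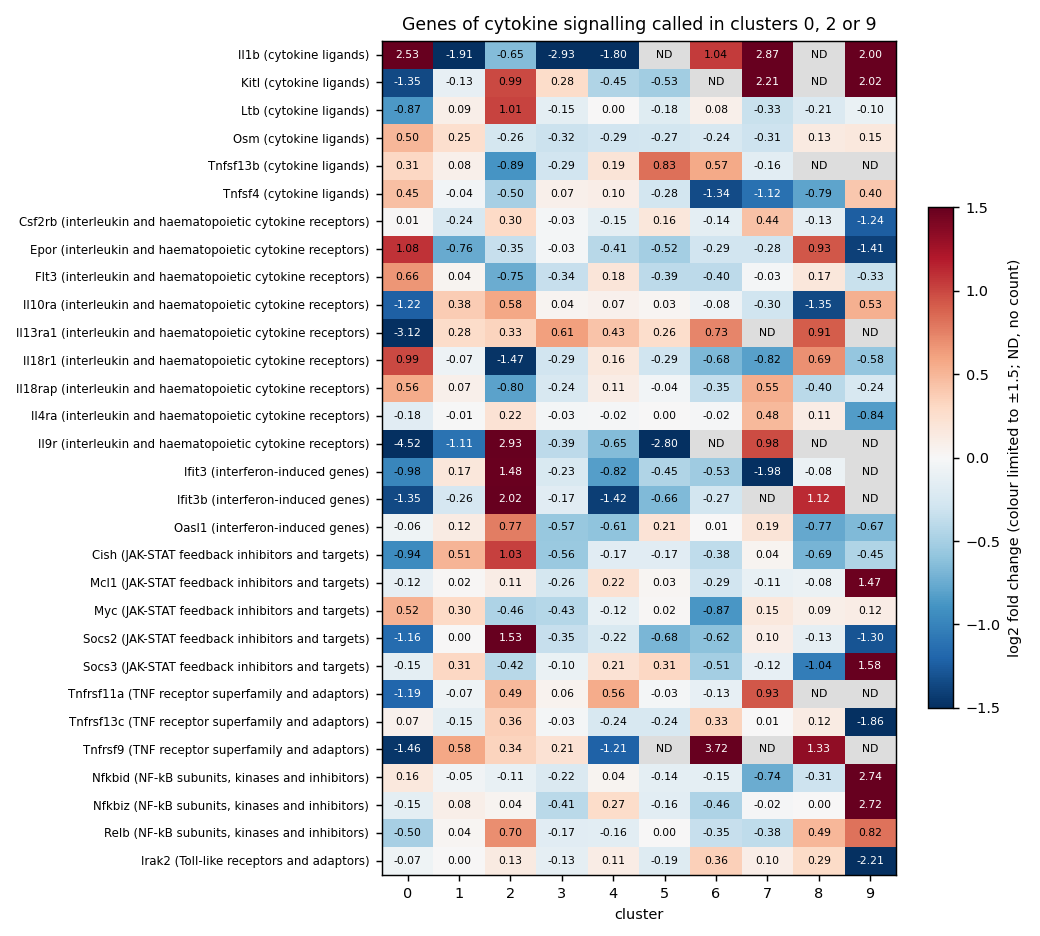
Log2 fold change (number and colour) of list genes called in clusters 0, 2 or 9 (rows, ordered by role, up to 8 per direction and cluster) in clusters 0 to 9 (columns) against all other cells; ND marks no count in that cluster. Socs2, Cish, Ltb and Ifit3 are at 1.01 to 1.53 in cluster 2 and below -0.8 in cluster 0, and Nfkbid and Nfkbiz exceed 2.7 in cluster 9 alone.

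The promoters of 4 genes called higher in cluster 2 are shown because each holds a match to the form read by a factor at the end of a cytokine pathway. Each runs from 250 bases before to 50 bases after the gene start in RefSeq (GRCm38.p6), on the plus strand. Capitals mark every match, on either strand, to TTCNNNGAA (the form read by STATs) in Cish, to GAAANNGAA (the core of the interferon-stimulated response element) in Ifit1 and Ifit3, and to GGANTTNCC (a kappaB form read by NF-kB) in Ltb. Overlapping matches run together.
Cish chr9:107296409-107296708: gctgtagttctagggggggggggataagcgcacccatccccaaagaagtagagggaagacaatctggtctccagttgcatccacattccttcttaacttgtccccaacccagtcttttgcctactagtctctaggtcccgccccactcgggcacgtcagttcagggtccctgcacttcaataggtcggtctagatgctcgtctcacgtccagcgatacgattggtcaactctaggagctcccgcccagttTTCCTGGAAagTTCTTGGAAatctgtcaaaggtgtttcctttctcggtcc
Ifit1 chr19:34640639-34640938: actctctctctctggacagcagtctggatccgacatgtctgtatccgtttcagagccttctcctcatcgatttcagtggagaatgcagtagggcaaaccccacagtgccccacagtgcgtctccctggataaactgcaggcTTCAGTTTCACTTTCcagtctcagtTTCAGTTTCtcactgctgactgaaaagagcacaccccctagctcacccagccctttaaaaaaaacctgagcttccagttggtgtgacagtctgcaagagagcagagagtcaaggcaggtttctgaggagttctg
Ifit3 chr19:34583279-34583578: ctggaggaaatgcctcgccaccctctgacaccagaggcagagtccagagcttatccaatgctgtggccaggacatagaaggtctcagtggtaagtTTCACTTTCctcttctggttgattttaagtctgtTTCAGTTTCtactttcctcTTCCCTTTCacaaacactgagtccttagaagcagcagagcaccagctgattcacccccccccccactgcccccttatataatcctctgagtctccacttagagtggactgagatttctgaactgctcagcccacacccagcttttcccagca
Ltb chr17:35194257-35194556: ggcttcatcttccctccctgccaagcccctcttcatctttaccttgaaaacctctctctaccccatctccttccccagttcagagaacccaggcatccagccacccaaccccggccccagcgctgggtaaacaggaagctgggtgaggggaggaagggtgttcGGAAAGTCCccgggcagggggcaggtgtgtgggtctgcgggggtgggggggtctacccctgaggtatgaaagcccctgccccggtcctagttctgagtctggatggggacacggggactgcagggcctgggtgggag

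Cish held 2 matches, both just after the gene start, Ifit1 and Ifit3 held 3 each and Ltb held 1. Of the 32851 RefSeq promoters of the same length 8.3% held the STAT form, 8.56% the response element and 3.94% the kappaB form. Of the 16 genes called higher in cluster 2, 12 had a promoter entry. The STAT form was found in 3 of them (Cish, Ltb and Nfkb2), the response element in 4 (Ifi44, Ifit1, Ifit3 and Ifit3b) and the kappaB form in 2 (Ltb and Nfkb2). The motif forms and the 4 promoters were chosen after the data were seen, longer forms having been tried first. A match describes the letters only and shows neither binding nor a cause.

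Summed levels of markers of other cells differed between clusters. Cluster 6, the lowest in cytokine scores, had a summed erythroid marker level of 5.95 per 10000 counts, against 1.23 over all cells, with 0 of 4 erythroid markers called higher, and T cell markers at 0.124 against 0.0180, with 0 called higher. Its stem cell markers summed to 11.1, the lowest of the 11 clusters. In cluster 0 all 4 megakaryocyte markers were called higher, with a sum of 1.92 against 1.22 over all cells. There 2 of the 3 measured mast cell or basophil markers and 1 of 4 erythroid markers were also called higher, and stem cell markers summed to 11.6. Of the 2 measured natural killer cell markers Nkg7 was called higher (2.085) and Klrb1c stood at -0.86 in the authors' deposited table. Flt3, the only 1 of 4 dendritic cell markers that was measured, was called higher too. In cluster 2 stem cell markers summed to 17.4, and the megakaryocyte sum was 0.840. In cluster 7 the erythroid sum was 0.464. In cluster 9 the 2 measured natural killer cell markers summed to 0.671 against 0.440 over all cells. They went opposite ways, with Klrb1c called higher (1.01) and Nkg7 at -1.135 in the authors' deposited table. Neutrophil markers summed to 0.379 against 0.231 there, with 0 called higher. Of the 5 macrophage or monocyte markers 3 were at 0 in each of clusters 7, 8 and 9. The part of these other cells in the pathway scores was not tested.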

How the data were processed

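HSCs from 6 libraries, 1 per age and feeding group, were profiled by droplet single-cell RNA sequencing. Scanpy and mm10 are named in the submitters' processing notes. Aligner, cell filters, doublet handling, clustering and pathway scoring were not given in the sources used here. In 22 deposited tables the authors compare each of 11 clusters with the remaining cells and give log2 fold changes, a pathway score (the authors' signed test statistic), log2 mean gene levels of counts scaled to 10000 per cell, and deposited p-values with an adjustment that matched the Benjamini-Hochberg method over all 2922 pathways. Library totals were not analysed here.

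Cell numbers were inferred from the deposited p-values of genes seen in 1 cell, where a Welch statistic is 1 in size, from both sides of the comparison for 7 clusters and from the rest alone for 4. Differences in cell SD are the deposited statistic times the root of the summed reciprocal cell numbers. This holds for equal spread on both sides, and it was tested only on simulated data of equal spread. Pathways were called at a log2 fold change of 0.1 and genes at 0.5, each with a deposited adjusted p under 0.05; folds under -10 mean no count. There being 1 mouse per group, no test between animals was made.

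Named pathways were the 3 highest and 3 lowest called per cluster, the 10 with the widest range over clusters 0 to 9 and the KEGG members; named genes were up to 8 list genes called per direction and cluster. The text also names other called members of a family, and values of named genes in further clusters. The members, lists and limits were chosen with earlier results of these data known. Gene positions are from GENCODE on mm10. Python 3.11.15, pandas 2.3.3, NumPy 2.4.6, SciPy 1.17.1 and matplotlib 3.10.9 were used. Alternatives covered the size limits, the filter on p, the unit of the difference, the members counted and the genes kept.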

Additional observations from a re-analysis of the deposited data

How the results depend on the processing

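The counts of called pathways moved with the size limit. All counts in this section are of members or list genes alone. The share of all pathways or genes called at each setting is not given, so these counts have no background. With a limit of 0.05 the members called higher and lower came to 14 and 21 (cluster 0), 3 and 6 (cluster 1), 39 and 7 (cluster 2), 1 and 19 (cluster 3), 24 and 5 (cluster 4) and 6 and 3 (cluster 5), and 42 were higher in cluster 8. With a limit of 0.2 they came to 1 and 1 (cluster 0), 0 and 0 (cluster 1), 0 and 22 (cluster 7) and 5 and 1 (cluster 8), with 0 lower for clusters 3 and 4 each and 45 for cluster 6; clusters 2 and 9 had 1 and 12 higher. In units of 0.2 cell SD, clusters 0, 1, 4, 7 and 8 had 11, 0, 8, 0 and 40 higher, and clusters 1, 2 and 4 had 4, 2 and 5 lower. Without the filter on the adjusted p, 2 were higher in each of clusters 4 and 7, and 1 was lower in each of clusters 2, 5, 9 and 10. Relative to the median of all pathways, a setting chosen after seeing the data, cluster 6 had 10 higher and 12 lower, cluster 7 had 22 lower, cluster 8 had 8 higher, cluster 10 had 3 higher and 5 lower, cluster 1 had 3 higher and 0 lower, and cluster 2 had 2 lower. Without the cytokinesis pathway, 1 was lower in cluster 1 and 0 higher in cluster 4. Counting near-identical profiles once left all 22 counts within 1.5 times.

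The mean over members was 0.0867 in cluster 9, and the median over Reactome members alone was -0.17 in cluster 6; the other 20 recomputed values moved less than the spread between members. For list genes, a limit of 1 left higher and lower counts of 2 and 9 (cluster 0), 0 and 1 (cluster 1), 6 and 1 (cluster 2), 0 and 23 (cluster 7) and 0 and 21 (cluster 8), with 3 lower for clusters 3 and 4 each, 17 lower for cluster 6 and 2 higher for cluster 10. With genes at or above the median expression only, the higher genes were 1 in cluster 0 and 10 in cluster 2, and the lower ones 8, 0, 0, 1, 0 and 1 in clusters 0 to 5 and 31, 19, 12, 2 and 0 in clusters 6 to 10. This setting tests fewer genes. No paired analysis was possible because each group held 1 library and the tables pool all cells. With 10 to 310 cells, clusters 6 to 10 give the least precise values, and no error between animals can be had.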
